A study of Rattus norvegicus with 9 samples.

Results

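The N-methyl-D-aspartate (NMDA) receptor subunit genes were followed in bulk RNA sequencing of the frontal cortex of adult rats. The family was taken whole, by gene symbol, as the 7 genes Grin1, Grin2a, Grin2b, Grin2c, Grin2d, Grin3a and Grin3b out of the 37209 genes of the count table. The samples were 9 Wistar males of 14 weeks, 3 in each of the Control, MS and MS+EA groups. Control litters were left with their mothers. The pups of the MS and MS+EA groups were kept apart from their mothers for 4 h a day from postnatal day 1 to 21. The MS+EA rats then received electroacupuncture (EA), an electrical current passed through needles at the acupoints GV20 and GV29 on the midline of the head, every other day from postnatal day 61 to 81 under isoflurane. According to the study's methods, Control and MS rats were anaesthetized without needles. The study's sham EA group, with needles fixed on the surface and no current, was not among the sequenced samples. The MS+EA rats received needle insertion and current together, so these cannot be told apart. The labels do not say which rats were littermates.

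NMDA receptors are glutamate-gated cation channels, each a tetramer. All contain GluN1, the product of Grin1, which binds glycine or D-serine as a co-agonist and without which no channel reaches the membrane. GluN2 subunits, from Grin2a to Grin2d, bind glutamate and set how fast the channel closes and how strongly magnesium blocks it. GluN3 subunits, from Grin3a and Grin3b, bind glycine and lower the calcium flow of the channels they join. In the cortex, Grin2b predominates early in life and Grin2a gains during postnatal development. Calcium entering through the receptor activates CaM kinase II and calcineurin at the postsynaptic density, and blockers of the receptor such as ketamine act as rapid antidepressants.

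Upstream sequence was at hand for 4 of the 7 members (Grin1, Grin2c, Grin2d and Grin3a) in RefSeq on build GRCr8. The 250 bases before the start of Grin1 and of Grin3a are shown because these subunits had the smallest p-values of the family after EA. CG dinucleotides, the sites at which DNA is methylated, are in capitals, and the sequences are read 5′ to 3′ on the minus strand of chr3:28528755-28529004 for Grin1 and of chr5:69001559-69001808 for Grin3a.
Grin1: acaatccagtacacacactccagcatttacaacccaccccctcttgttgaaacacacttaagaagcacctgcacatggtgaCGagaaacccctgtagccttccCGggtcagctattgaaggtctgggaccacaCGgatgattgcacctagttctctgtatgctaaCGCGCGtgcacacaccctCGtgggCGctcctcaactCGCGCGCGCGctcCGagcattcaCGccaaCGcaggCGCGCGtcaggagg
Grin3a: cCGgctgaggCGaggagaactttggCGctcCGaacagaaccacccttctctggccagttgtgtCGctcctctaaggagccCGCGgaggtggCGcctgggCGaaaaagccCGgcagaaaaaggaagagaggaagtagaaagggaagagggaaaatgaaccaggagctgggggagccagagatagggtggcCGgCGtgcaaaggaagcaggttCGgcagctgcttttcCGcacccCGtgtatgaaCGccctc
The Grin1 stretch held 19 CG dinucleotides and the Grin3a stretch 16, compared with 8 for Grin2c and 9 for Grin2d and with a median of 5 in 33469 RefSeq stretches of the same length. Of those stretches, 83.3% held as many as Grin1 or fewer and 78.1% as many as Grin3a or fewer. For Grin2c and Grin2d these were 61.5% and 64.1%, so many other stretches held more. G and C made up 57.6% of the Grin1 stretch and 60.4% of the Grin3a stretch, compared with a median of 51.2%. Both strands of the windows from 250 bases before to 50 bases after the start were searched for the GC box GGGCGG, which Sp1 and Sp4 are known to bind, and for the Egr site GCGGGGGCG. Both were found in the Grin1 window, overlapping each other, 30 and 26 bases after the start, and neither was found in the windows of Grin2c, Grin2d and Grin3a. Of all 33469 windows, 33.1% held the GC box and 2.73% held the Egr site. The 30 bases of Grin1 that carry the overlapping pair lie at chr3:28528710-28528739, with the pair in capitals.
Grin1 site: gcgtcaggaaGCGGGGGCGGtgggaggggt
These matches describe letters only. The expression values below were counted on build Rnor_6.0, and no coordinates were carried between the builds.

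The members took between 14549 and 25093 reads per rat. The library totals lay between 12479905 and 19007907 counts, and the 3 MS+EA libraries were the smallest, with 12479905 to 14913736 counts. Values are given as CPM, the counts scaled to a common library size after normalization by the trimmed mean of M-values (TMM). Read counts grow with transcript length, and lengths were not at hand, so CPM values were compared between groups for one gene and not between genes. The count model of edgeR, a quasi-likelihood F test with Benjamini-Hochberg adjustment, was fitted to all 16837 genes with enough reads, and a gene was called where it changed more than 1.5-fold in either direction with an adjusted p under 0.05. Grin1, Grin2a, Grin2b, Grin2c, Grin2d and Grin3a passed the filter on low counts. Grin3b, best known from motor neurons, did not, with 0, 1 and 1 reads in the Control rats, 0 in each MS rat and 1, 5 and 0 in the MS+EA rats. Only C10 lay above 3 reads, and the gene is left out of the tests. Because these are pieces of whole tissue, fewer cells of a type and less RNA per cell cannot be told apart. With 3 samples per group, p-values measure the spread between these samples alone.

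Of the reads on the family in Control rats, 45.8% ± 0.910 (SD, n = 3) fell on Grin1 and 42.2% ± 1.63 on Grin2b. Grin2c took 5.83% ± 0.623 and Grin2a 3.92% ± 0.0820. Grin2d took 1.15% ± 0.147 and Grin3a 1.12% ± 0.0970. These are shares of reads and not of molecules. The rat-to-rat spread differed between members. The biological coefficient of variation fitted by edgeR was 6.36% for Grin1, 7.73% for Grin2a, 8.46% for Grin2b, 10.3% for Grin2c, 11.9% for Grin2d and 13.8% for Grin3a, beside 12.7% common to all genes tested.

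**Figure D1:**
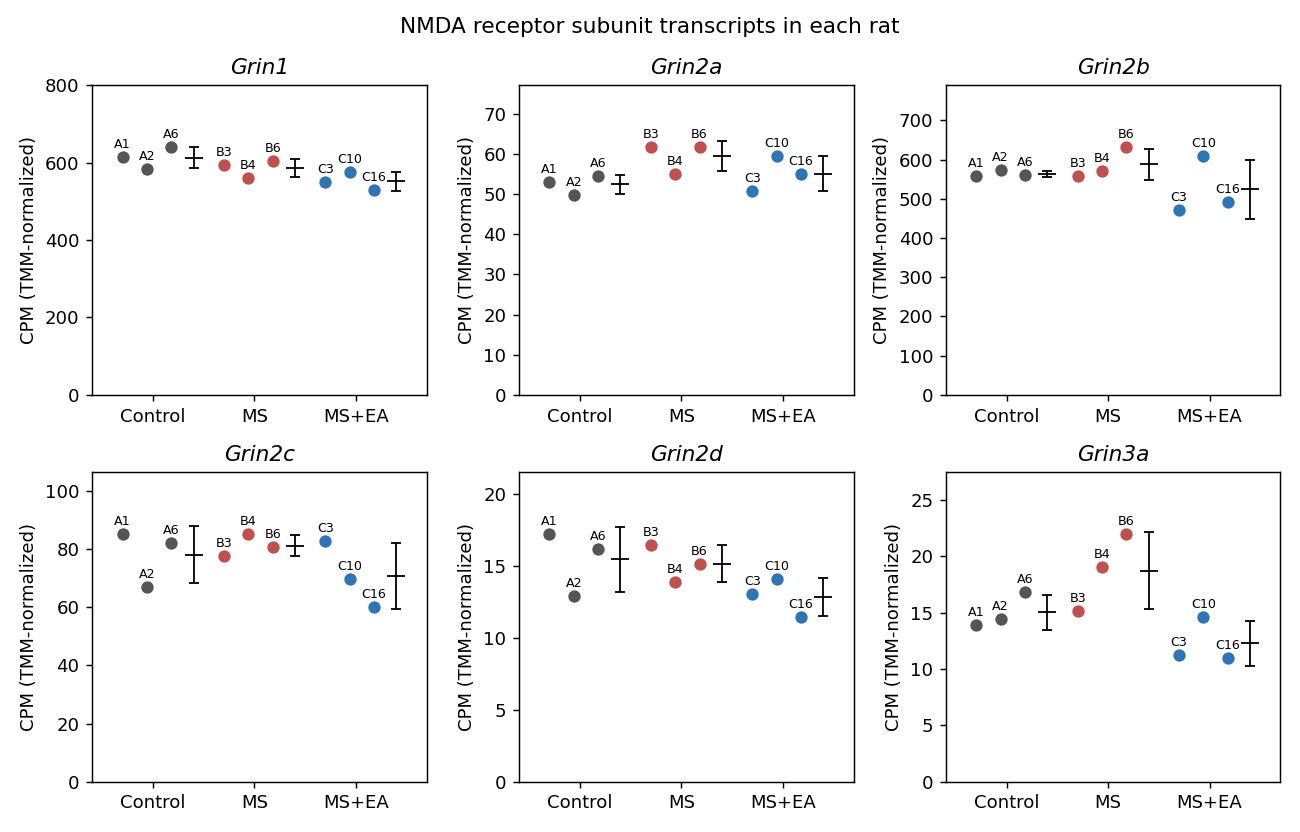
TMM-normalized CPM of the 6 tested NMDA receptor subunit genes (vertical axes from 0) in each of the 9 rats, grouped as Control, MS and MS+EA on the horizontal axes, with the group mean and SD as a bar beside the points. Grin3a lay at 15.2 CPM or more in the MS rats and at 14.6 CPM or less in the MS+EA rats, and every MS value of Grin2a lay above every Control value.

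Grin1, the obligatory subunit, was measured at 614, 584 and 641 CPM in Control rats A1, A2 and A6. In MS rats B3, B4 and B6 it was at 594, 561 and 604 CPM. In MS+EA rats C3, C10 and C16 it was at 551, 577 and 528 CPM. The MS values overlapped those of both other groups, whereas each MS+EA value lay below each Control value. The group means were 613 ± 28.1, 586 ± 22.3 and 552 ± 24.3 CPM (SD, n = 3).

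Grin2a, whose subunit gives the receptor its fast closing, was at 52.9, 49.8 and 54.6 CPM in the Control rats. It was at 61.8, 55.1 and 61.7 CPM in the MS rats. It was at 50.7, 59.5 and 55.0 CPM in the MS+EA rats. All 3 MS rats were above all 3 Control rats, although B4 was close to A6, and the MS+EA rats overlapped both groups. The means were 52.4 ± 2.46 CPM in Control, 59.5 ± 3.82 CPM in MS and 55.1 ± 4.40 CPM in MS+EA rats.

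Grin2b, which encodes the slower GluN2B subunit, was at 559, 573 and 561 CPM in Control rats, a spread of 1.32% of the mean. The MS rats were at 559, 572 and 632 CPM, the last of them the highest of the 9. The MS+EA rats were at 471, 610 and 491 CPM, so that C3 and C16 were the lowest of all and C10 was above every Control rat. The mean of the MS+EA group, 524 ± 74.8 CPM, therefore had the widest SD of the 3 groups, beside 564 ± 7.46 CPM in Control and 588 ± 39.4 CPM in MS rats.

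Grin2c, a subunit gene known from cerebellar granule cells and astrocytes, was at 85.3, 66.9 and 82.2 CPM in Control rats. It was at 77.8, 85.1 and 80.8 CPM in MS rats and at 82.8, 69.6 and 60.1 CPM in MS+EA rats. The 3 groups overlapped. Grin2d, in the adult cortex known mainly from interneurons, was at 17.2, 12.9 and 16.2 CPM in Control rats. It was at 16.4, 13.9 and 15.2 CPM in MS rats and at 13.0, 14.1 and 11.4 CPM in MS+EA rats. Its groups overlapped too, with the lowest value in C16.

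Grin3a, whose subunit restrains calcium flow and the maturation of spines, was at 13.9, 14.4 and 16.8 CPM in Control rats. These values rest on 259, 236 and 270 reads. In MS rats it was at 15.2, 19.0 and 22.0 CPM, from 260, 304 and 366 reads. In MS+EA rats it was at 11.2, 14.6 and 11.0 CPM, from 162, 218 and 138 reads. Every MS+EA rat was below every MS rat, while Control rats overlapped both groups. The means were 15.0 ± 1.56, 18.7 ± 3.43 and 12.3 ± 2.03 CPM.

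The comparison of MS with Control rats asked whether early separation left a mark on the subunit genes in adulthood. No member was called. Calls were made for 4 of all 16837 genes (0.0238%). The log2 fold changes of the members had a median of 0.06, against -0.0014 over all genes tested, and lay between -0.06 for Grin1 and 0.32 for Grin3a. They were above 0 in 4 of 6 members, as in 49.7% of all genes. Grin2a was 13.5% higher in MS rats, a log2 fold change of 0.18 ± 0.0833 (SE), with a 95% interval of the change from 0.185% to 28.7%. Its p was 0.0472 before and 0.462 after adjustment in edgeR. It was the 1 of 6 members with an unadjusted p under 0.05, as were 10.6% of all genes, and the 1 of 6 whose groups did not overlap, as was the case for 17.6% of all genes. Those shares are near the background. Grin3a was 24.8% higher, with an interval from -1.54% to 58.1% and an adjusted p of 0.498 in edgeR. Changes of Grin1, Grin2b, Grin2c and Grin2d had intervals that spanned 0, the tightest for Grin1 from -13.2% to 5.39%. A change the size of the calling threshold therefore lay outside the intervals of Grin1, Grin2a, Grin2b, Grin2c and Grin2d, and inside that of Grin3a.

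The comparison of MS+EA with MS rats asked what EA changed in separated animals. All 6 tested members had lower values after EA. Their log2 fold changes had a median of -0.18, beside 0.00059 for all genes, of which 49.9% were lower. The members were measured in the same 6 rats and are not independent of one another. No member was called, as against 3 of 16837 genes (0.0178%). Grin3a was 34.3% lower, a log2 fold change of -0.61 ± 0.161 (SE), with a 95% interval from -48.4% to -16.3%. Its p was 0.00248 before and 0.226 after adjustment in edgeR. It was the 1 of 6 members with an unadjusted p under 0.05, as were 12.4% of all genes. It was also the 1 of 6 without overlap of the groups, as was the case for 17.9% of all genes. Leaving out each rat in turn moved its log2 fold change between -0.75 and -0.47, and its adjusted p lay between 0.0551 and 0.538 over all alternatives. The 4 GluN2 genes were lower by log2 fold changes of -0.11 for Grin2a, -0.17 for Grin2b, -0.20 for Grin2c and -0.24 for Grin2d. The interval of each of these spanned 0, as did that of Grin1, which was 5.88% lower with an interval from -14.6% to 3.73%.

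The comparison of MS+EA with Control rats set treated animals beside undisturbed ones. It shares the MS+EA rats with the preceding comparison and the Control rats with the first, so its values are not separate evidence. Of all genes, 230 (1.37%) were called, and no member was among them. Grin1 was 9.98% lower, a log2 fold change of -0.15 ± 0.0647 (SE), with a 95% interval from -18.3% to -0.795%. Its p was 0.0361 before and 0.188 after adjustment in edgeR. It was the 1 of 6 members with an unadjusted p under 0.05 and the 1 of 6 without overlap, below the shares of 22.5% and 25.9% among all genes. Values were lower in 5 of 6 members, as in 49.1% of all genes, and the median of the members was -0.15. Grin2a was the exception, with a log2 fold change of 0.07. Grin3a was at -0.29 with an adjusted p of 0.320 in edgeR.

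**Figure D2:**
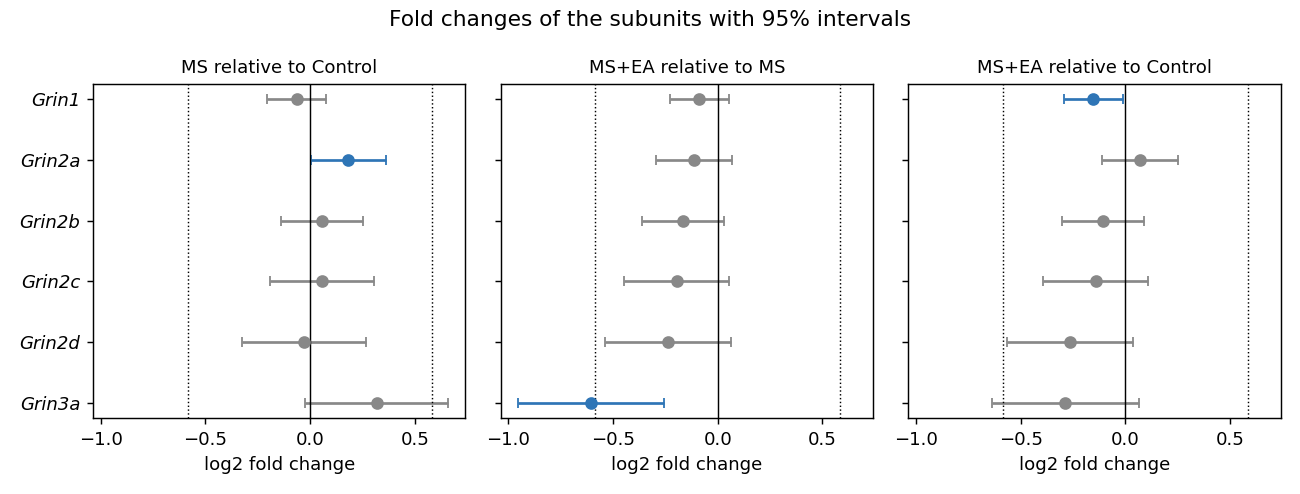
Log2 fold changes of the 6 tested subunit genes in the 3 comparisons of the Control, MS and MS+EA rats, as points with 95% intervals from the edgeR fit on a horizontal axis with a line at 0, dotted lines at a 1.5-fold change and blue for an unadjusted p under 0.05. In MS+EA relative to MS all 6 points lie below 0, and only the interval of Grin3a, from -0.96 to -0.26, leaves out 0.

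Markers of cell types moved with some of these groups. Of the 4 excitatory neuron markers, none was at 0 in any group, and their summed level was 2293 to 2498 CPM in Control, 2255 to 2336 CPM in MS and 1923 to 2128 CPM in MS+EA rats. The MS+EA range did not overlap the others. Slc17a7, the vesicular glutamate transporter of cortical excitatory neurons, was at 1635, 1532 and 1607 CPM in Control rats. It was at 1436, 1439 and 1498 CPM in MS rats and at 1225, 1337 and 1304 CPM in MS+EA rats. Against Control rats its log2 fold change was -0.30 with an adjusted p of 0.0207 in edgeR, short of the fold threshold, and 2 of the 4 markers were lower and 2 higher. Without A1, A6 or C16 that adjusted p was 0.0926, 0.0812 or 0.0529. The 5 markers of layer 6 and 6b, none at 0, were all higher in MS+EA than in MS rats, 2 of them at an unadjusted p under 0.05, as were 6.01% of all genes, and none after adjustment. Their summed level was 37.2 to 52.6 CPM in Control, 37.5 to 41.5 CPM in MS and 49.0 to 71.9 CPM in MS+EA rats, which parted MS+EA from MS rats. The 2 at that threshold were Cplx3 and Syt6, which the study had itself named as changed in these samples. For Cplx3 the direction was that of the study, lower after MS and higher after EA. For Syt6 the study gave the reverse, a rise after MS undone by EA. In the counts used here Syt6 was lower in MS than in Control rats (log2 fold change -0.69) and higher in MS+EA than in MS rats (1.04). The sum is thus not separate evidence, and Ctgf, Nxph4 and Foxp2 overlapped between MS and MS+EA rats. All 5 oligodendrocyte markers were likewise higher in MS+EA than in MS rats, with summed ranges that overlapped, from 1675 to 2720 CPM in MS and from 1890 to 3906 CPM in MS+EA rats. Of the 6 interneuron markers 4 were lower in MS+EA than in MS rats, 2 of them at an unadjusted p under 0.05 without overlap of the groups. These were Pvalb at a log2 fold change of -0.25 and Slc32a1 at -0.18 (adjusted p of 0.322 and 0.394 in edgeR). Among all genes 6.42% were lower at that threshold and 17.9% had groups without overlap. The 6 interneuron markers summed to 474 to 617 CPM in MS and 477 to 633 CPM in MS+EA rats. The 3 endothelial markers were all higher in MS than in Control rats and all lower in MS+EA than in MS rats. Of them 1, Cldn5, had an unadjusted p under 0.05 in both comparisons, and none after adjustment. Among all genes 7.06% were higher and 6.42% lower at that threshold, and both comparisons used the same MS rats. The markers summed to 72.1 to 85.6 CPM in Control, 91.4 to 104 CPM in MS and 74.6 to 90.9 CPM in MS+EA rats. In this sum MS rats lay above both other groups without overlap, though narrowly above MS+EA rats. Pecam1 and Flt1 overlapped in both comparisons, while 17.6% and 17.9% of all genes did not overlap. The 5 astrocyte markers summed to 2142 to 2503 CPM in MS and 2000 to 2772 CPM in MS+EA rats. The 4 striatum markers summed to 101 to 116 CPM in Control, 96.2 to 113 in MS and 86.6 to 112 in MS+EA rats. In that order, the 3 of thalamus gave 34.9 to 44.3, 34.1 to 51.6 and 40.1 to 53.7 CPM. The 3 of cerebellar granule cells gave 11.1 to 13.5, 11.0 to 15.4 and 12.3 to 18.6 CPM. At an unadjusted p under 0.05 in edgeR, Slc17a6 was lower (log2 fold change -0.87) and Prkcd higher (0.52) in MS than in Control rats. Slc17a6 (0.92), Drd1 (0.56) and Cbln1 (0.83) were higher in MS+EA than in MS rats, where 2 striatum, 1 thalamus and 1 granule cell markers were lower. No gene on these lists, or on those of microglia, endothelium and oligodendrocyte precursors, was at 0 in a whole group, and none but Slc17a7 had an adjusted p under 0.05 in edgeR in any comparison. The part of cell make-up or of the smaller MS+EA libraries in the values of Grin1 and Grin3a was not tested.

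Shares within a rat do not depend on library size and were compared by exact two-sided permutation tests, for which 3 rats against 3 cannot give a p below 0.1. Shares sum to 100% and so depend on one another, and p-values were not adjusted over them. Grin2a took 3.94%, 3.82% and 3.98% of the family's reads in Control rats. It took 4.66%, 4.22% and 4.36% in MS rats and 4.30%, 4.43% and 4.76% in MS+EA rats. Both separated groups lay wholly above Control, by 0.498 and 0.578 percentage points (exact permutation p = 0.1 each, the smallest possible), and they overlapped each other (exact permutation p = 0.6). Grin1 took 45.8% ± 0.910 in Control, 43.5% ± 1.22 in MS and 45.1% ± 1.96 in MS+EA rats, the MS rats all lying below the Control rats (exact permutation p = 0.1). Grin3a took 1.12% ± 0.0970 in Control, 1.39% ± 0.214 in MS and 0.996% ± 0.0786 in MS+EA rats, and here the MS+EA rats all lay below the MS rats (exact permutation p = 0.1). Shares of Grin2b, Grin2c and Grin2d overlapped in each comparison.

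The ratio of Grin2b to Grin2a reads, which falls as cortical synapses mature, was 10.6, 11.5 and 10.3 in Control rats. It was 9.05, 10.4 and 10.3 in MS rats and 9.29, 10.2 and 8.92 in MS+EA rats. The means were 10.8 ± 0.649, 9.89 ± 0.735 and 9.49 ± 0.682. MS+EA rats lay below Control rats without overlap (exact permutation p = 0.1), although A6 and C10 were nearly level, and MS rats overlapped both groups (exact permutation p = 0.2 against Control and 0.5 against MS+EA). The reads on the 4 GluN2 genes came to 1.16 ± 0.0442 times those on Grin1 in Control, 1.27 ± 0.0577 times in MS and 1.20 ± 0.0952 times in MS+EA rats, where the MS rats lay above Control without overlap (exact permutation p = 0.1). Grin1 and the GluN2 genes took nearly all of the family's reads, so this ratio largely restates the Grin1 share given above. The whole family summed to 1338 ± 35.1 CPM in Control, 1349 ± 58.8 CPM in MS and 1227 ± 102 CPM in MS+EA rats. The groups overlapped in this sum (exact permutation p = 0.8 for MS against Control and 0.3 for MS+EA against each other group), in a design that cannot give a p below 0.1.

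**Figure D3:**
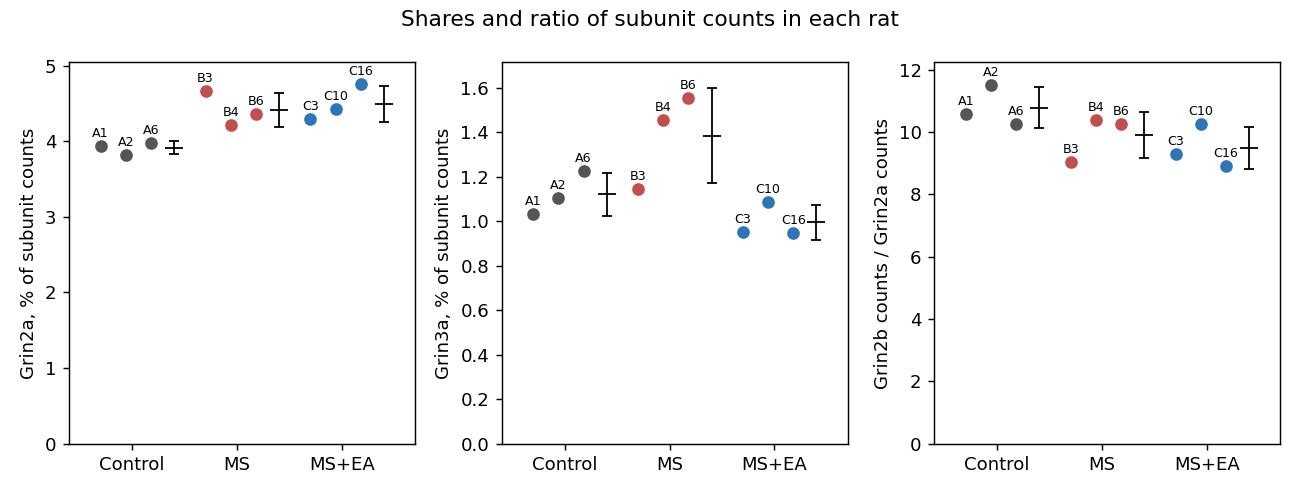
Grin2a and Grin3a reads as a percent of all subunit reads and the ratio of Grin2b to Grin2a reads (vertical axes from 0) in each of the 9 rats, with group mean and SD beside the points. Grin2a shares are at 3.98% or less in Control rats and at 4.22% or more in all MS and MS+EA rats.

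Genes around the receptor were read from lists of its partners. Scaffold and trafficking proteins hold the receptor in the postsynaptic density or carry it there, and all 11 listed were tested. In MS+EA relative to Control rats 2 of 11 were lower at an unadjusted p under 0.05, as were 10.6% of all genes, and none after adjustment. The smallest p-values were those of Actn2, which encodes alpha-actinin, in both comparisons of EA, with log2 fold changes of -0.16 (adjusted p = 0.556 in edgeR) against MS and -0.28 (adjusted p = 0.141) against Control. In MS relative to Control rats it was Kif17, the kinesin motor that carries GluN2B along dendrites, at -0.14 (adjusted p = 0.681 in edgeR).

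Kinases, phosphatases and other proteins of calcium signalling act on the receptor or downstream of it, and 16 of their genes were tested. In MS+EA relative to Control rats 15 of the 16 genes were lower, as were 49.1% of all genes. The median of their log2 fold changes was -0.18. These genes were measured in the same rats and are not independent of one another. At an unadjusted p under 0.05, 6 were lower and 1 higher, where 10.6% of all genes were lower and 11.9% higher. After adjustment over all genes Camk2a and Src stayed under 0.05, as did 5.40% of all genes, each short of the fold threshold. Camk2a, the alpha chain of CaM kinase II, was at 2541, 1969 and 2297 CPM in Control rats and at 1867, 1778 and 1664 CPM in MS+EA rats, a log2 fold change of -0.36 ± 0.0891 (SE; adjusted p = 0.0387 in edgeR). Src, a tyrosine kinase that raises NMDA currents, was at 220, 186 and 209 CPM in Control rats and at 174, 165 and 159 CPM in MS+EA rats, a log2 fold change of -0.30 ± 0.0719 (adjusted p = 0.0337 in edgeR). Neither overlapped between these groups, as was the case for 25.9% of all genes, and Slc17a7 was lower in the same rats, as given above. Without Control rat A1 their adjusted p rose to 0.162 and 0.148, without A6 to 0.126 and 0.113, and without MS+EA rat C16 to 0.121 and 0.105 in edgeR. Without C10 they were 0.0772 and 0.0752. Camk2a also exceeded 0.05 without B4 (0.0511) and B6 (0.0524). Relative to MS rats both genes were lower in MS+EA rats at an unadjusted p under 0.05, as were 6.42% of all genes. Src had the smallest p, at -0.27 (adjusted p = 0.226 in edgeR), and none of the list was under 0.05 after adjustment. In MS relative to Control rats 13 of the 16 were lower, while 49.7% of all genes were higher. Of the 16, 1 was lower at an unadjusted p under 0.05, as were 3.55% of all genes. That gene was Ptpn5, the phosphatase STEP that removes receptors from the surface, at -0.21 (adjusted p = 0.271 in edgeR).

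**Figure D4:**
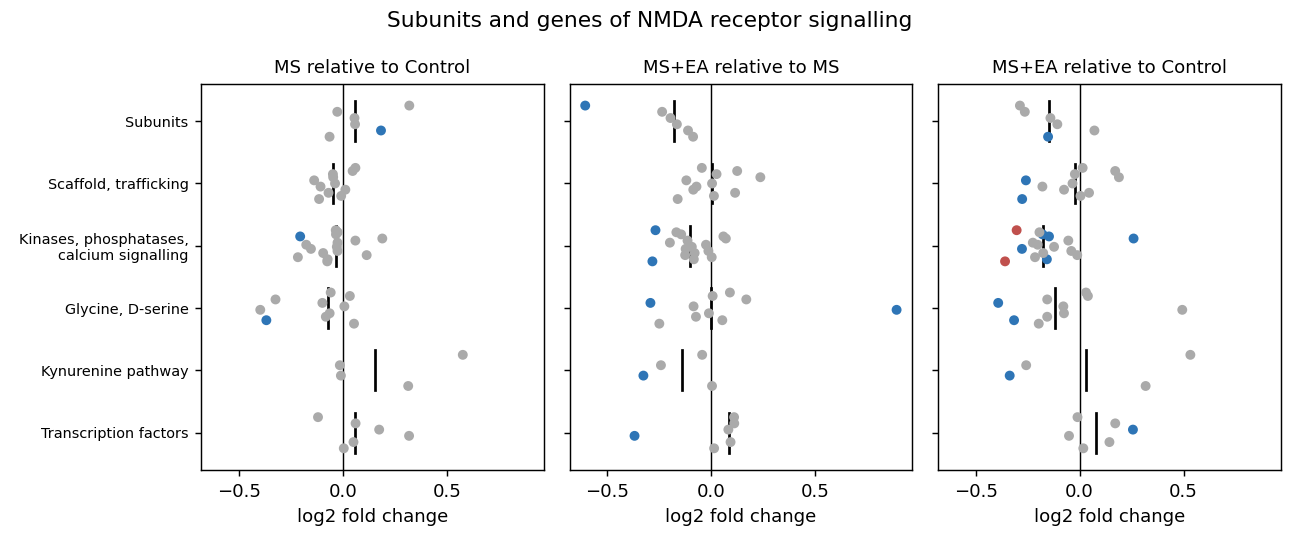
Log2 fold changes (horizontal axis, line at 0) of the 6 tested subunits and of every tested gene of the 5 partner lists in the 3 comparisons of Control, MS and MS+EA rats, with a point per gene, a short bar at each list's median, blue for an unadjusted p under 0.05 and red for an adjusted p under 0.05. In MS+EA relative to Control 15 of the 16 kinase and calcium signalling genes lie below 0, as do 49.1% of all genes. The 2 at an adjusted p under 0.05 are Camk2a and Src.

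The supply and removal of the co-agonists glycine and D-serine was read from 11 genes, of which 10 were tested and Dao was not. Phgdh, the first enzyme of serine synthesis in astrocytes, had the smallest p of the list in MS and in MS+EA relative to Control. It was at 48.4, 43.6 and 45.3 CPM in Control rats, at 33.4, 37.1 and 35.9 CPM in MS rats and at 36.6, 33.9 and 40.0 CPM in MS+EA rats. Both separated groups lay wholly below the same Control rats. Groups did not overlap for 17.6% of all genes in MS and 25.9% in MS+EA relative to Control. The log2 fold changes of Phgdh were -0.37 ± 0.0879 for MS (adjusted p = 0.148 in edgeR) and -0.32 ± 0.0883 for MS+EA (adjusted p = 0.0566 in edgeR). With DESeq2 these adjusted p were 0.0298 and 0.0274, the smallest over 16 alternatives in each comparison. In 15 of 16 alternatives each stayed above the threshold for the adjusted p. The largest values were 0.380 for MS and 0.201 for MS+EA relative to Control. Shmt1, which interconverts serine and glycine, had the smallest p in MS+EA relative to MS, at 0.89 ± 0.293 (adjusted p = 0.275 in edgeR), from only 19 to 46 reads a rat in those groups. Srr, the enzyme that makes D-serine, had log2 fold changes between -0.06 and 0.09. It was picked for its role after the values were seen.

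Of 9 genes of the kynurenine pathway, whose products include the receptor's agonist quinolinic acid and its antagonist kynurenic acid, 4 were tested, and Kmo, Kynu, Haao, Ido1 and Tdo2 had too few reads. Ccbl1, one of the enzymes that make kynurenic acid, had the smallest p in both comparisons of EA, at -0.33 against MS (adjusted p = 0.369 in edgeR) and -0.34 against Control (adjusted p = 0.179). Qprt, which uses up quinolinic acid, had the smallest p in MS relative to Control, at 0.58 (adjusted p = 0.694 in edgeR). It had only 12 to 34 reads a rat in those groups, the most in B4, and its log2 fold change was 0.036 without B4. Among 6 transcription factors known to act on Grin genes, Sp1 had the smallest p in both comparisons with Control, at 0.17 in MS (adjusted p = 0.504 in edgeR) and 0.26 in MS+EA rats (adjusted p = 0.105). Rest, the repressor of neuronal genes, had it in MS+EA relative to MS, at -0.37 (adjusted p = 0.396 in edgeR). No gene of the kynurenine and transcription factor lists was under 0.05 after adjustment in edgeR in any comparison.

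The genes most like each member across the 9 rats were found by Pearson's r of log2 CPM, as a description that includes differences between groups and in library quality. Grin1 was closest to Spryd3 (r = 0.958), Tekt5 (0.955) and Tmem74b (0.946). Grin2b was closest to Kcnb2 (r = 0.962), a potassium channel, Nt5c3a (0.958) and Sphkap (0.955). Grin2a was closest to Rbm24 (r = 0.932), LOC103692905 (0.915) and Igbp1b (0.913). Grin2c was closest to Mbd3 (r = 0.964), Rgs20 (0.964) and Gnptg (0.958). Grin2d was closest to Wwc1 (r = 0.950), Itpr1 (0.942), the calcium release channel of the endoplasmic reticulum, and Rnf157 (0.942). Grin3a was closest to Tada2b (r = 0.956), Slc4a11 (0.935) and Gabra2 (0.929), a GABA-A receptor subunit. No member was among the 3 genes closest to another member.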

How the data were processed

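Total RNA of 9 frontal cortex samples was depleted of rRNA and sequenced on a HiSeq X. The authors used FastQC to filter reads and HISAT2 2.0.4 (version per the labels) to map them to Rnor_6.0, and deposited whole-number read counts per gene, not normalized. The counting program, its strand setting and the treatment of reads with several locations are not given in the sources used here. Counts of 12479905 to 19007907 per rat were analysed in edgeR 4.0.16 (R 4.3.3) with TMM normalization, filterByExpr with a minimum count of 10, and the quasi-likelihood F test on all 9 rats, with Benjamini-Hochberg adjustment over 16837 genes. The thresholds, adjusted p under 0.05 and 1.5-fold, are those of the study. Standard errors of log2 fold changes were taken as their size over the root of F. Alternatives used DESeq2 1.42.0, limma 3.58.1, other normalizations and filters, and each rat left out. Code was tested on simulated data. The members, partner lists and markers were chosen with earlier results of these data known. Named genes were all members, and from each partner list the genes under 0.05 after adjustment and the one with the smallest p per comparison. For each tested member the 3 genes with the highest Pearson's r were named as well. A gene of the kinase and calcium signalling list is not reported here and is left out of its counts. Kyat1 and Kyat3 were counted under the older symbols Ccbl1 and Ccbl2. Promoter sequences are from RefSeq, build GRCr8.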

Additional observations from a re-analysis of the deposited data

How the results depend on the processing

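Of 288 member fold changes over all alternatives, 284 kept their direction and their side of the thresholds and none became called. The 4 that turned were all in MS relative to Control with a rat left out, where Grin2d moved to 0.059 without A1, 0.0042 without A6 and 0.031 without B4 (range -0.14 to 0.059), and Grin2c to -0.050 without A2 (range -0.050 to 0.12). The numbers of genes called in MS relative to Control, MS+EA relative to MS and MS+EA relative to Control were 4, 3 and 230. With genes of at least 1 count they were 207, 72 and 469, and DESeq2 gave 69 and 42 for the first pair. With only the 6 rats compared they were 11 and 1, with at least 10 counts in every rat MS+EA relative to MS gave 0, and without the fold threshold MS+EA relative to Control gave 910. Leaving out a rat gave 2 to 22, 1 to 4 and 71 to 304. The 1 member with an unadjusted p under 0.05 in MS relative to Control became 0 under DESeq2, its size factors or total counts, in MS+EA relative to MS 2 with genes of at least 1 count, and in MS+EA relative to Control 0 under total counts, at least 10 counts in every rat or only the 6 rats. Leaving out a rat gave 0 to 2, 1 to 2 and 0 to 3. The summed CPM of the family in MS minus Control turned from 10.1 to -3.98 under total counts and ranged from -23.4 to 31.4 with a rat left out (-8.44 without A2). The cause of these changes was not tested.

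Subunit shares that turned with a rat left out had these ranges in percentage points. In MS relative to Control Grin2c ranged from -0.140 to 0.466 and Grin2d from -0.106 to 0.0389. In MS+EA relative to MS Grin2a ranged from -0.0512 to 0.205, Grin2b from -2.36 to 0.343 and Grin2c from -0.846 to 0.0751. In MS+EA relative to Control Grin1 ranged from -1.51 to 0.383, Grin2b from -0.999 to 1.70 and Grin2c from -0.642 to 0.279. The number of shares without overlap ranged from 1 to 3 in MS+EA relative to MS and from 1 to 2 in MS+EA relative to Control. With all rats only the Grin3a share parted in the former and only the Grin2a share in the latter. Groups left with fewer rats part more easily, so a higher number is no sign of a difference. Camk2a and Src kept an adjusted p under 0.05 in MS+EA relative to Control in 9 and 11 of 16 alternatives. A correction for GC content and shares per transcript length were not run, since no genome or lengths were given here. No paired analysis was possible because no rat was sampled in more than 1 group and the labels give no pairs.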
